A study of Mus musculus with 6 samples.

Results

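The mitochondrial carriers of the Slc25 family were examined in D10 T cells cultured at 26°C or 37°C. Members were chosen by name alone, as every gene of type protein-coding whose symbol starts with Slc25a, and 47 of the 41079 listed genes, 22255 of them protein-coding, met this rule. D10 (D10.G4.1) is a cloned mouse helper T cell line that recognizes a conalbumin peptide. All 6 libraries are labelled as D10 cells, although some T cell markers given below differed between the replicates. Cold-acclimated cells were kept at 26°C for 24 h and non-acclimated cells at 37°C for 24 h, with 3 independently prepared replicates per condition, numbered 1 to 3. The labels give no gene deletion, drug or further treatment in either group. The comparison addresses which transcripts differ once T cells have adapted to low temperature.

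Proteins of this family sit in the inner mitochondrial membrane, which is closed to most polar solutes, and each moves a particular set of metabolites, nucleotides, cofactors or ions across it. A typical carrier is built from repeats of paired membrane-spanning helices around a central binding site, and many exchange one substrate for another. In T cells the exchange of ADP for ATP, the entry of phosphate, and the passage of malate, aspartate and glutamate link oxidative phosphorylation to the cytosol, while other carriers supply iron, coenzyme A, glutathione and nucleotides.

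Expression is given as TPM, the reads of a gene divided by its length and scaled so that every library sums to the same total. A TPM is therefore a share of the transcripts counted, and in a culture fewer cells expressing a gene and less of its RNA per cell cannot be told apart. The libraries held 16899628 to 31290854 reads as recovered from the values. Differences between conditions were fitted for the 12227 genes with a mean of at least 1 TPM as a log2 fold change, cold-acclimated minus non-acclimated, of TPM plus 1. Upregulated and downregulated are used for genes that passed both thresholds of the study, an adjusted p (limma, Benjamini-Hochberg) under 0.05 and a log2 change whose size was 1 or more.

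The libraries carried the markers of T cells, with Cd3e, a chain of the T cell receptor complex, between 476 and 874 TPM. The 8 T cell markers summed to 4260 to 5409 TPM in non-acclimated and 3281 to 4100 TPM in cold-acclimated libraries. This sum holds Il2ra, a chain of the interleukin-2 receptor, at 1360 to 2026 TPM in non-acclimated and 217 to 327 TPM in cold-acclimated libraries. Il2ra was downregulated, and none of the other T cell markers was called. Although the line is labelled CD4+, Cd4 reached at most 1.30 TPM in the 4 libraries of replicates 1 and 2, against 310 and 328 TPM in the non-acclimated and cold-acclimated libraries of replicate 3. Other markers set replicate 2 apart, with Cd28, a co-stimulatory receptor, at 7.35 and 5.61 TPM against 27.9 to 54.5 TPM in the other 4 libraries. Cd3d, a T cell receptor chain, was at 64.3 and 78.6 TPM in replicate 2 against 240 to 332 TPM in the others. Calls are therefore also given without replicate 3 and without replicate 2. The labels speak of an old and a new RNA batch without saying which library belongs to which, so no result could be split by batch. The 5 B cell markers summed to at most 1.11 TPM, the 5 macrophage and monocyte markers to 2.46 to 21.2 TPM, and the 4 markers of muscle, brown fat and liver to at most 1.35 TPM. Among 6 erythroid markers Hba-a1 gave nearly the whole sum (60.8 to 485 TPM), with Hbb-bs and Hbb-bt at 0.

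Of the 47 carriers, 35 passed the filter on low values and were tested. Slc25a13, Slc25a21, Slc25a27, Slc25a34, Slc25a41, Slc25a43, Slc25a48 and Slc25a54 had 0 reads in every library, and an observed count of 0 allows an expected count of up to 3 reads per library. Slc25a2 (highest value 1.82 TPM), Slc25a18 (0.36 TPM), Slc25a29 (0.20 TPM) and Slc25a31 (0.069 TPM) had reads but stayed under the filter. The value of Slc25a31 was 1 read in non-acclimated replicate 1, and it was at 0 in the other 5 libraries. Among these, Slc25a13 encodes a second aspartate/glutamate carrier besides Slc25a12, and Slc25a31 an ADP/ATP carrier known from the male germ line. The tested carriers spanned mean levels from 1.01 TPM for Slc25a47 to 801 TPM for Slc25a5.

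Cold acclimation was accompanied by upregulation of 1 carrier, Slc25a28, and downregulation of 6, Slc25a10, Slc25a11, Slc25a12, Slc25a30, Slc25a40 and Slc25a45. Over all tested genes 2.63% were called upregulated and 16.0% downregulated, so the 6 downregulated carriers of 35 lay near the background. The values of the conditions did not overlap for 2 carriers that were higher (Slc25a28 and Slc25a26) and 8 that were lower, against 9.69% and 31.4% of all tested genes. The median log2 fold change of the tested carriers was -0.36, beside -0.34 over all tested genes. Scaling the libraries by the median of ratios moved the median of all genes to 0.03 and that of the carriers to 0.01. Under this scaling 1 carrier was upregulated (Slc25a28) and 1 downregulated (Slc25a40), with 6.87% and 8.6% of all genes called.

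The libraries of 1 replicate number deviated together, and a fit with the replicate number as a block called 1 carrier up and 9 down, beside 3.75% and 21.9% of all genes. The 3 carriers added by the block were Slc25a17, Slc25a35 and Slc25a42. Of the 35 tested carriers, 18 were lower and 2 higher in cold-acclimated cells in all 3 replicates. The share of all tested genes that did so was not computed, and their median was negative in each replicate. The median log2 difference in replicates 1, 2 and 3 was -0.32, -0.44 and -0.24 over all tested genes. It was -0.27, -0.61 and -0.43 over the carriers. Each of the 7 called carriers moved less in replicate 3 than on average in replicates 1 and 2. The share of all called genes that did so was not computed. The median over all tested genes was also smallest in size in replicate 3, while that over the tested carriers was smallest in replicate 1.

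**Figure D1:**
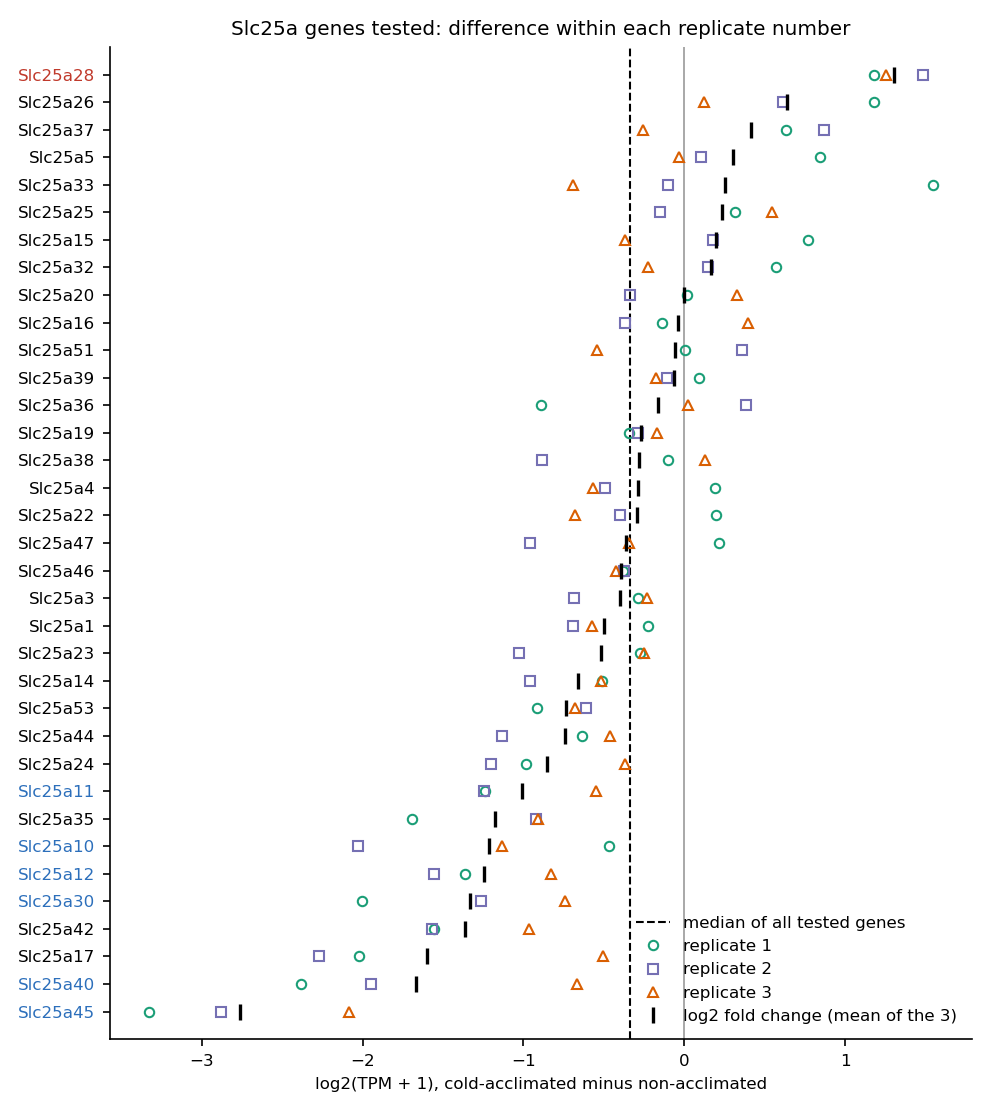
Differences in log2(TPM + 1) between cold-acclimated and non-acclimated cells (horizontal axis) for each of the 35 tested carriers (vertical axis, sorted by log2 fold change), with 1 symbol per replicate number and a bar at the mean of the 3. Names in red and blue mark the 1 upregulated and 6 downregulated genes. The dashed line is the median of all tested genes (-0.34), and for 18 genes all 3 symbols lie below 0, as this line does.

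The calls of the 7 carriers depended on which libraries entered the fit. Without non-acclimated replicate 1 or 2, or cold-acclimated replicate 1 or 2, no carrier was called in either direction. These 4 fits called 59 to 78 of the 12227 tested genes upregulated and 345 to 600 downregulated. The adjusted p (limma) of the 7 lay between 0.060 and 0.15 in them. At an unadjusted p under 0.05, 1 carrier was higher and 7 to 9 were lower in each, beside 642 to 672 and 2769 to 3060 of all tested genes. Without non-acclimated replicate 3, 5 were called downregulated and none upregulated, beside 1820 and 395 of all tested genes. Slc25a28, Slc25a10 and Slc25a45 lost their calls in this fit (adjusted p = 0.063, 0.10 and 0.10). Without cold-acclimated replicate 3, 1 was upregulated and 8 downregulated, beside 459 and 2725 of all tested genes. Without both libraries of replicate 3 these were 1 and 9, beside 653 and 3088, in a set that lacked Slc25a10 (adjusted p = 0.063). Without both libraries of replicate 2 limma called no carrier and no gene at all. At an unadjusted p under 0.05, 1 carrier was then higher and 4 lower, beside 380 and 1849 of all tested genes. The adjusted p of the 7 were then between 0.22 and 0.36, and their log2 fold changes had the same signs.

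Iron reaches the mitochondrial matrix through the mitoferrins, Slc25a37 (mitoferrin 1, known from developing red cells) and Slc25a28 (mitoferrin 2, known from most tissues), for the making of haem and iron-sulfur clusters. Slc25a28 (ENSMUSG00000040414, GRCm39 chr19:43652240-43663320, minus strand) measured 22.3, 22.3 and 13.6 TPM in non-acclimated replicates 1, 2 and 3. In cold-acclimated replicates 1, 2 and 3 it measured 51.9, 64.1 and 33.8 TPM. The lowest cold-acclimated library was above the highest non-acclimated library, and the mean rose from 19.4 ± 5.03 to 49.95 ± 15.3 TPM (SD, n = 3 each). The log2 fold change was 1.31 (SE 0.32, adjusted p = 0.030), and the rise was of similar size in replicates 1, 2 and 3 (1.18, 1.48 and 1.25 on the log2 scale). It passed both thresholds under the other scaling (1.70, adjusted p = 0.022).

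The other mitoferrin did not pass the test. Slc25a37 measured 11.7, 11.7 and 19.0 TPM in non-acclimated and 18.7, 22.2 and 15.7 TPM in cold-acclimated replicates 1, 2 and 3, with a log2 fold change of 0.41 (SE 0.28, adjusted p = 0.33). It was higher in the cold in replicates 1 and 2 and lower in replicate 3. Both transcripts together made 33.6 ± 0.802 TPM at 37°C and 68.8 ± 18.4 TPM at 26°C. The ratio of Slc25a28 to Slc25a37 was 1.51 ± 0.689 at 37°C and 2.61 ± 0.402 at 26°C (log2 difference 0.91). An exact two-sided permutation test of this ratio gave p = 0.1, the smallest it can give with 3 against 3, and 0.15 after adjustment over the 3 ratios compared here. The test does not use the replicate numbers, and the ratio was higher at 26°C in each of the 3 replicates (1.91, 1.91 and 0.716 against 2.78, 2.89 and 2.15). Hba-a1 was detected in every library, but Hbb-bs and Hbb-bt, the adult beta globins of red cells, were at 0.

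Glutathione is carried into mitochondria by Slc25a39 and its close relative Slc25a40. Slc25a40 (ENSMUSG00000054099, chr5:8472730-8504840, plus strand) measured 35.8, 27.8 and 18.6 TPM at 37°C in replicates 1, 2 and 3, and 6.05, 6.44 and 11.3 TPM at 26°C. All cold-acclimated libraries lay below all non-acclimated ones, but the groups came closest in replicate 3. Its log2 fold change of -1.67 (SE 0.34, adjusted p = 0.019) stayed past both thresholds under the median of ratios scaling (-1.29, adjusted p = 0.037).

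Slc25a39 (chr11:102293795-102299501, minus strand), by contrast, was the fourth most abundant Slc25a gene and differed little, with 114, 123 and 115 TPM at 37°C and 122, 114 and 102 TPM at 26°C. Its log2 fold change was -0.06 (SE 0.20, adjusted p = 0.85), turning to 0.35 under the median of ratios scaling. The ratio of Slc25a39 to Slc25a40 went from 3.19, 4.43 and 6.17 at 37°C to 20.2, 17.7 and 8.97 at 26°C. These ratios did not overlap and were higher at 26°C in each replicate (log2 difference 1.73, exact two-sided permutation p = 0.1, adjusted p = 0.15). The first 60 bases of Slc25a40 overlap Dbf4 on the opposite strand, which was not called (160 ± 18.1 and 155 ± 68.3 TPM).

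The malate-aspartate shuttle moves reducing equivalents into mitochondria with 2 carriers, the aspartate/glutamate carrier Slc25a12 (aralar) and the oxoglutarate/malate carrier Slc25a11. Both were downregulated. Slc25a12 (ENSMUSG00000027010, chr2:71104614-71198125, minus strand) measured 27.5, 33.4 and 27.4 TPM in non-acclimated replicates 1 to 3 and 10.1, 10.7 and 15.0 TPM in cold-acclimated replicates. The groups stood well apart, with means of 29.4 ± 3.47 and 11.9 ± 2.64 TPM and a log2 fold change of -1.25 (SE 0.25, adjusted p = 0.017). With the median of ratios scaling the log2 fold change was -0.86 (adjusted p = 0.040), short of the size threshold.

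Slc25a11 (ENSMUSG00000014606, chr11:70534845-70538356, minus strand) measured 116, 111 and 72.4 TPM at 37°C and 48.6, 46.1 and 49.1 TPM at 26°C. The cold-acclimated values were nearly equal, and the spread lay in the non-acclimated libraries (99.7 ± 23.8 against 48.0 ± 1.58 TPM). The log2 fold change was -1.01 (SE 0.25, adjusted p = 0.030), just past the size threshold, and -0.60 (adjusted p = 0.12) under the median of ratios scaling. Its 5′ part shares 301 bases with Rnf167 on the opposite strand, which was downregulated too (65.0 ± 15.1 to 25.3 ± 2.81 TPM, log2 fold change -1.31, adjusted p = 0.015). The library kit keeps the strand, but the strand setting of the counting is not given in the sources used here, so reads of the shared stretch may have been counted for either gene.

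Of the other aspartate and glutamate carriers, Slc25a13 was at 0 and the glutamate carrier Slc25a22 was not called (50.3 ± 20.4 against 41.0 ± 15.7 TPM, log2 fold change -0.29, adjusted p = 0.62). Among the carriers of di- and tricarboxylates, the dicarboxylate carrier Slc25a10, which exchanges malate or succinate for phosphate, was downregulated. Slc25a10 (ENSMUSG00000025792, chr11:120382663-120391987, plus strand) measured 10.6, 16.8 and 16.8 TPM at 37°C and 7.43, 3.36 and 7.10 TPM at 26°C. The groups did not overlap, with 121 to 809 reads behind each value, but the drop within replicate 1 (-0.47 on the log2 scale) was smaller than in replicates 2 and 3 (-2.03 and -1.14). Its log2 fold change of -1.21 (SE 0.35, adjusted p = 0.047) was close to the significance threshold. Under the median of ratios scaling it was -0.84 (adjusted p = 0.11).

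The citrate carrier Slc25a1, which exports citrate for fatty acid and sterol synthesis, was not called at 79.4 ± 10.2 and 57.3 ± 17.8 TPM (log2 fold change -0.50, adjusted p = 0.22). In all, 2 of 3 tested carriers of this group and 1 of 2 tested carriers of aspartate and glutamate were downregulated, beside 16.0% of all tested genes, and 0 of these 5 under the median of ratios scaling. All 5 had a negative log2 fold change at the deposited scaling, of which that of Slc25a22 turned positive (0.11) under the median of ratios scaling.

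Slc25a30 (ENSMUSG00000022003, chr14:75994986-76024477, minus strand) encodes a carrier related to the uncoupling proteins. It measured 17.1, 12.3 and 12.5 TPM at 37°C and 3.53, 4.52 and 7.09 TPM at 26°C. The drop was seen in every replicate and was largest in replicate 1 (-2.00, -1.26 and -0.74 on the log2 scale in replicates 1, 2 and 3). The log2 fold change was -1.34 (SE 0.31, adjusted p = 0.024), or -0.97 (adjusted p = 0.058) with the median of ratios scaling.

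Of its relatives, Slc25a14 was not called (log2 fold change -0.66, adjusted p = 0.36) and Slc25a27 was at 0. Ucp1, the uncoupling protein of brown fat, was at 0 as well, and Ucp3 reached at most 0.094 TPM. Ucp2, the uncoupling protein known from immune cells, was by contrast abundant, with a mean level above that of each ADP/ATP carrier. It measured 1535, 1033 and 866 TPM at 37°C and 1199, 826 and 817 TPM at 26°C, and was not called (log2 fold change -0.25, SE 0.30, adjusted p = 0.58).

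The lowest log2 fold change of the family belonged to Slc25a45 (ENSMUSG00000024818, chr19:5927828-5935796, plus strand), a carrier with no settled substrate in the grouping used here. It measured 16.3, 11.8 and 44.0 TPM at 37°C and 0.72, 0.74 and 9.60 TPM at 26°C, with 16 and 17 reads behind the lowest 2 values. Both libraries of replicate 3 were the highest of their condition, and the groups nonetheless did not overlap. The log2 fold change was -2.76 (SE 0.78, adjusted p = 0.044), and the drop was -3.33, -2.88 and -2.09 in replicates 1, 2 and 3. Under the median of ratios scaling it was -2.46 (adjusted p = 0.064), and -3.10 (adjusted p = 0.0035) without both libraries of replicate 3.

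Slc25a17, Slc25a42 and Slc25a35 passed both thresholds in the fit with the replicate block but not in the fit without it. Slc25a17, a carrier of coenzyme A and related nucleotides in peroxisomes, measured 76.0, 94.96 and 93.1 TPM at 37°C and 17.96, 18.9 and 65.4 TPM at 26°C. The cold-acclimated library of replicate 3 lay far above the other 2, though below every non-acclimated one (log2 fold change -1.60, SE 0.48, adjusted p = 0.052, with the block 0.017). Slc25a42, a coenzyme A carrier of the mitochondrial inner membrane, measured 9.98, 8.32 and 18.7 TPM at 37°C and 2.73, 2.14 and 9.11 TPM at 26°C. Its groups overlapped because replicate 3 was high in both conditions, and it was lower in the cold within each replicate (log2 fold change -1.36, SE 0.51, adjusted p = 0.092, with the block 0.011). Slc25a35, whose substrate is not settled here, was instead low in replicate 3, with 15.3, 13.1 and 2.18 TPM at 37°C and 4.04, 6.43 and 0.70 TPM at 26°C (log2 fold change -1.17, SE 0.76, adjusted p = 0.30, with the block 0.019). With the block under the median of ratios scaling, Slc25a17 and Slc25a42 were called (adjusted p = 0.038 and 0.024) and Slc25a35 was not (log2 fold change -0.83, adjusted p = 0.054).

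**Figure D2:**
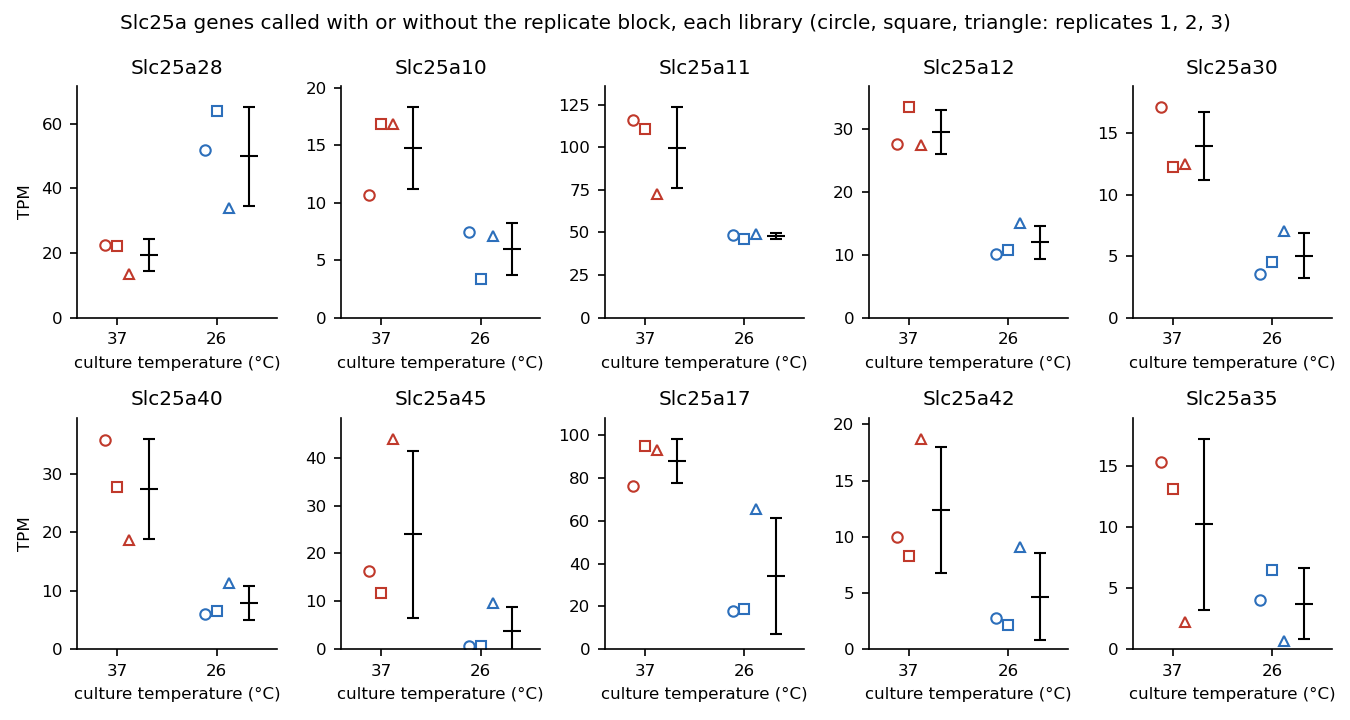
TPM (vertical axes, each from 0) of the 7 called carriers and of Slc25a17, Slc25a42 and Slc25a35, which were called with the replicate block, at 37°C (red) and 26°C (blue). Circles, squares and triangles are replicates 1, 2 and 3, and the bars give mean ± SD (n = 3), cut off at 0. Slc25a28 is higher at 26°C. The triangles of Slc25a45, Slc25a17 and Slc25a42 at 26°C lie above the other 2 libraries, as do those of Slc25a11, Slc25a12, Slc25a30 and Slc25a40.

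The carriers of cofactors and acylcarnitine held the second carrier with no overlap between conditions in the upward direction. Slc25a26, which brings the methyl donor S-adenosylmethionine into mitochondria, measured 2.72, 4.90 and 5.05 TPM at 37°C and 7.41, 8.03 and 5.58 TPM at 26°C. It was not called (log2 fold change 0.64, SE 0.31, adjusted p = 0.17). Its difference was 1.18, 0.62 and 0.12 in replicates 1, 2 and 3. None of the 8 tested carriers of this group was called in the fit of all 6 libraries without the block. Their median log2 fold change was -0.05, or 0.29 relative to the median of all genes. Slc25a17 and Slc25a42 were called when cold-acclimated replicate 3 was left out (limma, adjusted p = 0.0025 and 0.014). The carnitine/acylcarnitine carrier Slc25a20, which admits fatty acids for oxidation, was level in deposited TPM at 33.8 ± 1.16 and 34.3 ± 7.31 TPM, and the NAD carrier Slc25a51 at 40.9 ± 2.51 and 40.2 ± 11.5 TPM.

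By level, the genes with Slc25a symbols were dominated by the 3 carriers that feed ATP synthase. Ucp2, a relative left out by the choice by symbol, had a higher mean level (1046 TPM) than each of them. The ADP/ATP carriers Slc25a4 and Slc25a5 and the phosphate carrier Slc25a3 made 57.6% to 77.4% of the summed TPM of the Slc25a genes, without Ucp2. This sum was 2957 ± 688 TPM at 37°C and 2540 ± 491 TPM at 26°C (SD, n = 3 each). None of the 3 was called. Slc25a5 (chrX:36059250-36062461, plus strand) measured 357, 554 and 1344 TPM at 37°C and 641, 596 and 1316 TPM at 26°C. Replicate 3 was about equally high in both conditions, and the log2 fold change was 0.31 (SE 0.52, adjusted p = 0.71), turning to -0.12 without non-acclimated replicate 1 and -0.06 without cold-acclimated replicate 3.

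Slc25a3 (chr10:90952436-90959902, minus strand) measured 539, 757 and 859 TPM at 37°C and 441, 469 and 731 TPM at 26°C (log2 fold change -0.40, SE 0.30, adjusted p = 0.36). It was lower in the cold in each replicate at the deposited scaling, and level under the median of ratios scaling (0.01). Slc25a4 (chr8:46660205-46664099, minus strand) measured 411, 625 and 528 TPM at 37°C and 469, 443 and 356 TPM at 26°C (log2 fold change -0.29, SE 0.25, adjusted p = 0.44). Its values overlapped, and its sign turned under the median of ratios scaling (0.12).

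Slc25a5 exceeded Slc25a4 in both libraries of replicate 3, by a ratio of 2.54 at 37°C and 3.69 at 26°C. In replicates 1 and 2 the ratio was 0.87 and 0.89 at 37°C and 1.37 and 1.35 at 26°C, so that the order of the 2 carriers differed between the conditions in these replicates. The ratio was higher at 26°C than at 37°C in each of the 3 replicates. Its log2 difference was 0.60 (exact two-sided permutation p = 0.5, adjusted p = 0.5), in a test that does not use the replicate numbers and so holds the high level of replicate 3 in its spread. Reads shared between these similar genes and their processed copies may have been split by the counting. In order of mean TPM the Slc25a genes ran Slc25a5, Slc25a3, Slc25a4, Slc25a39 and Slc25a11. The ranges of the first 3 overlapped while all of them lay above that of Slc25a39, which overlapped that of Slc25a11. Without Slc25a3, Slc25a4 and Slc25a5, the remaining carriers summed to 966 ± 52.6 TPM at 37°C and 719 ± 16.8 TPM at 26°C. This difference was not tested. In deposited TPM a typical tested gene was also lower in the cold (median -0.34 on the log2 scale). The median of ratios scaling divides TPM by 1.13 to 1.21 at 37°C and by 0.84 to 0.96 at 26°C. This takes away nearly all of the gap between these sums, and the libraries of the conditions then overlap.

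**Figure D3:**
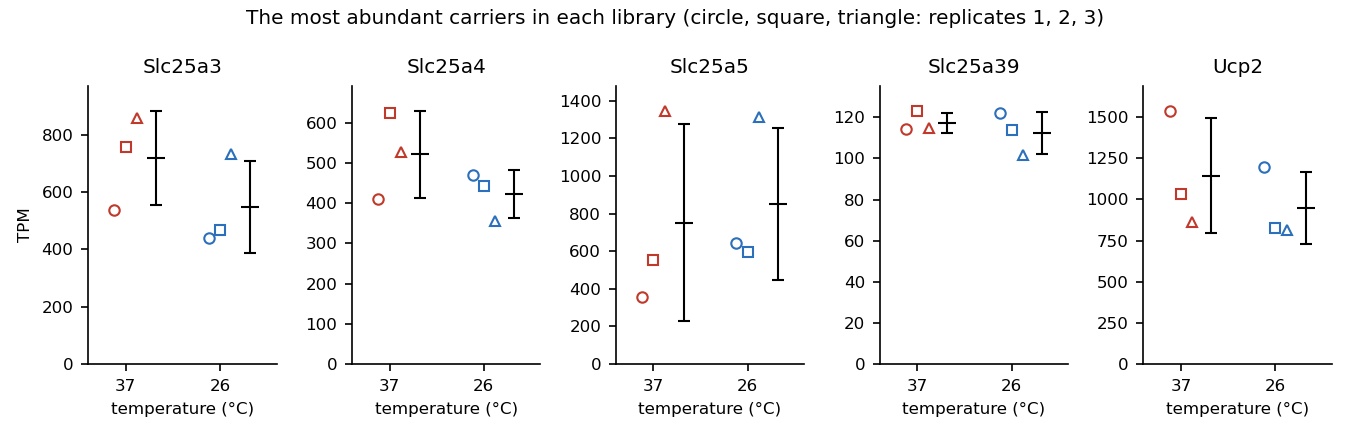
TPM (vertical axes, each from 0) of Slc25a3, Slc25a4, Slc25a5 and Slc25a39, the 4 Slc25a genes with the highest mean level, and of the relative Ucp2, at 37°C (red) and 26°C (blue). Circles, squares and triangles are replicates 1, 2 and 3 and the bars give mean ± SD (n = 3 each); the 2 conditions overlap for all 5 genes, and Slc25a5 is highest in replicate 3 at both temperatures (1344 and 1316 TPM).

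The carriers of ATP-Mg and phosphate, of pyrimidine nucleotides and of other amino acids had no called member. Among carriers of ATP-Mg and phosphate, the calcium-regulated Slc25a24 measured 74.2, 78.6 and 32.9 TPM at 37°C and 37.0, 33.5 and 25.3 TPM at 26°C. It did not pass the test (log2 fold change -0.85, SE 0.37, adjusted p = 0.13), and its groups overlapped through the low non-acclimated library of replicate 3. It passed both thresholds without that library, and also without both libraries of replicate 3 (-1.09, adjusted p = 0.013). The pyrimidine nucleotide carriers Slc25a33 and Slc25a36 had log2 fold changes of 0.25 and -0.16, and the 3 tested carriers of other amino acids ranged from -0.74 to 0.20. Of the carriers with no settled substrate besides Slc25a45, Slc25a53 did not overlap between conditions (6.71 ± 1.28 against 3.63 ± 0.792 TPM) but was not called (log2 fold change -0.74, adjusted p = 0.097), and Slc25a46, known for a role in mitochondrial dynamics at the outer membrane, had a log2 fold change of -0.39 (adjusted p = 0.44).

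The promoters of called carriers were searched for 3 short motifs that are common upstream of genes for mitochondrial proteins or housekeeping genes. RefSeq gave a window for 36 of the 47 carriers, and the 250 bases before each start were read on both strands. CCAAT occurred in the windows of 16 of the 36 carriers (44.4%), beside 33.8% of all 32851 windows. Each carrier entered with 1 window, the one nearest its deposited 5′ end, while the set of all windows was not reduced to 1 per gene. Of the called carriers, Slc25a28 held 3 matches, at 43, 176 and 187 bases before its RefSeq start, and Slc25a11 and Slc25a30 held 1 each. The windows with CCAAT were thus 2 of 6 among downregulated carriers (33.3%), near the share of all windows. Slc25a42 and Slc25a25, which are not among the called carriers, held 5 and 3 matches. The E-box letters CACGTG occurred in 6 of the 36 windows (6.0% of all) and the NRF1 core CGCATGCG in none (1.5% of all), and neither occurred in the window of a called carrier. CACGTG and CGCATGCG are their own reverse complements, and no match to CCAAT in a called carrier's window overlapped another motif. The stretches around CCAAT are shown because they are the matches found for called carriers, and they are written 5′ to 3′ on the gene's strand with the motif in capitals, from the RefSeq table of GRCm38.p6, and were placed in GRCm39 by exact match.
Slc25a28, chr19:43663485-43663514: aagtccgCCAATcaagagCCAATaaacaag
Slc25a28, chr19:43663347-43663375: ttagggcctacaCCAATggctgtctgggg
Slc25a30, chr14:76024513-76024541: tgtcgacagtgaCCAATgagaacgtggtg
Slc25a11, chr11:70537931-70537959: ttccccgcgattCCAATtccggaggggcg
The RefSeq start of Slc25a28 and Slc25a30 was the 5′ end of the gene in the deposited table, while that of Slc25a11 lay 491 bases inside it. In GENCODE vM39 longer first exons of Slc25a28 cover its window, so the printed stretches of this gene can be transcribed in that annotation. The matches are letters only, and no factor binding was measured.

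Other genes of mitochondrial transport were compared as lists written from general knowledge. Carriers reach the inner membrane through the TOM complex, small TIM chaperones and the TIM22 translocase. Of 13 import genes tested, 1 was upregulated and 1 downregulated, beside 2.63% and 16.0% of all tested genes. Timm29, a subunit of that translocase, measured 33.6, 47.8 and 49.5 TPM at 37°C and 95.1, 143 and 99.9 TPM at 26°C (log2 fold change 1.35, SE 0.27, adjusted p = 0.017). Agk, a lipid kinase that is also a subunit of the complex, measured 8.54, 11.0 and 11.8 TPM at 37°C and 4.16, 3.69 and 6.10 TPM at 26°C (log2 fold change -1.03, SE 0.28, adjusted p = 0.040). Neither gene's values overlapped, and these subunits moved in opposite directions. Under the median of ratios scaling Timm29 stayed upregulated (1.75, adjusted p = 0.012), the receptor Tomm20 joined it (1.15, adjusted p = 0.029) and Agk was not called (-0.67, adjusted p = 0.11).

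Of 21 other mitochondrial transport genes 18 were tested, and 3 were downregulated, beside 16.0% of all tested genes. None was upregulated (limma), and at an unadjusted p under 0.05, 0 were higher and 9 lower, beside 948 and 3664 of the 12227 tested genes. Mcu, the pore of the mitochondrial calcium uniporter, measured 18.7, 19.8 and 17.6 TPM at 37°C and 1.08, 1.70 and 4.46 TPM at 26°C (log2 fold change -2.65, SE 0.38, adjusted p = 0.0079). All cold-acclimated libraries lay below all non-acclimated ones, and Mcu stayed downregulated under the median of ratios scaling (-2.32, adjusted p = 0.012).

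With the replicate block 8 of these 18 genes were downregulated (21.9% of all genes), and under the median of ratios scaling 2 (8.6% of all genes). The pyruvate carrier subunits Mpc1 and Mpc2 and the outer membrane channels Vdac1, Vdac2 and Vdac3 were not called, with log2 fold changes between -0.55 and 0.23.

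Set against the median of all tested genes, the median log2 fold change was -0.03 for the 35 carriers, 0.41 for the 13 import genes and -0.43 for the 18 other transport genes. The genes of the respiratory chain and ATP synthase were taken by the start of their symbols, so the list also holds assembly factors. The 97 tested genes of this list had a relative median of 0.33, with 0 upregulated and 3 downregulated. The downregulated genes were Sdha, a subunit, and Ndufaf7 and Sdhaf3, which are assembly factors. The 78 mitochondrial ribosomal protein genes had a relative median of 0.08, with 1 upregulated and 4 downregulated. Of all tested genes, 2.63% were upregulated and 16.0% downregulated. These medians are given side by side as a description, and the differences between the lists were not tested.

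**Figure D4:**
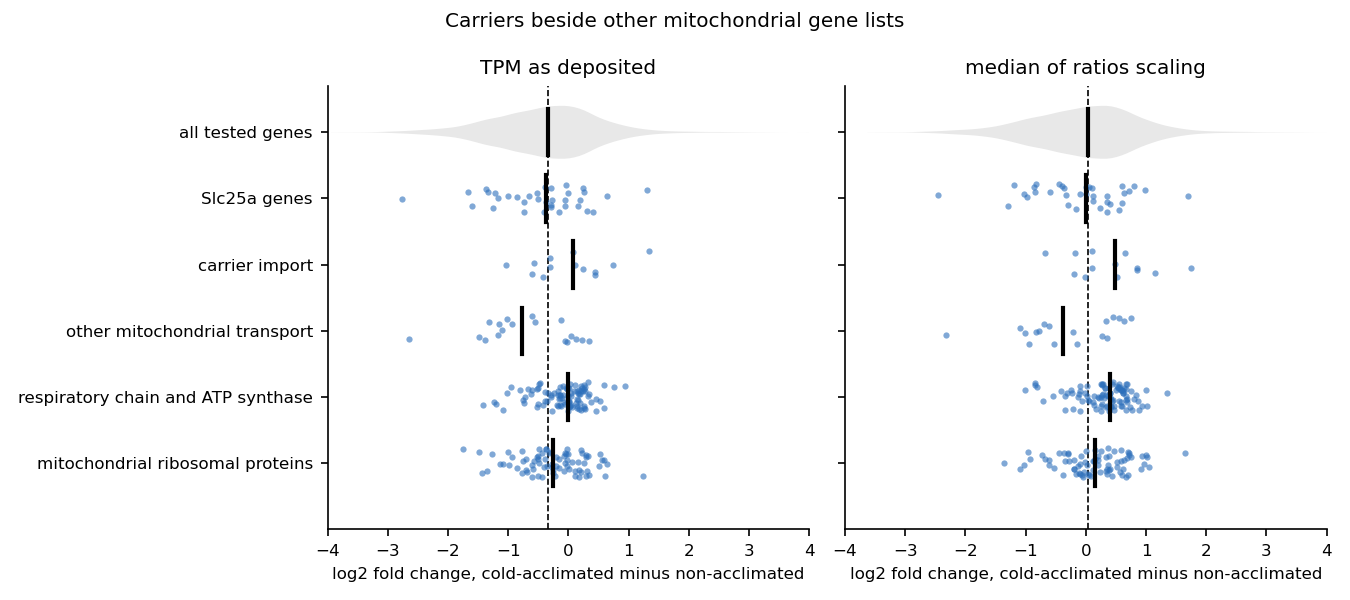
Log2 fold changes, cold-acclimated minus non-acclimated (horizontal axes), of all 12227 tested genes (grey shape) and of each gene in 5 lists (points, spread vertically for visibility), with TPM as deposited (left) and after median of ratios scaling (right), on axes that end at -4 and 4. Black bars are medians and the dashed line is the median of all tested genes (-0.34 left, 0.03 right); the carriers' median lies near that line, the median of import genes lies to its right and that of other transport genes to its left, with points of both lists on either side.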

How the data were processed

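Poly(A)+ RNA of D10 T cells was made into strand-specific paired-end libraries. Per the labels and the submitters' processing notes, the authors checked reads with FastQC 0.11.7, trimmed them with Trimmomatic 0.38, aligned them to GRCm39 with HISAT2 2.1.0 and counted them per gene with featureCounts 1.6.3. The authors deposited TPM values. The annotation release, gene lengths and strand setting are not stated in the labels or methods, which also name different culture media (RPMI and DMEM).

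Reads per gene were recovered from the steps of each gene's TPM: all 21195 genes above 0 gave whole reads within 1e-06 reads, for 901 of them after the length was multiplied. Differential expression was tested with limma 3.58.1 (R 4.3.3) with a mean-variance trend on log2(TPM + 1), which understates changes of low genes. All 6 libraries entered, with no covariate, and p-values were adjusted over the 12227 genes whose mean TPM was 1 or more. Alternatives were a pseudocount of 0.1, no filter, median of ratios scaling, the replicate number as a block, both together, each library left out, and limma's voom on the recovered reads. Leaving out both libraries of replicate 3, or of replicate 2, was added after the data were seen. Libraries with the same number deviated together (correlation of deviations from the condition means 0.48 to 0.51 over genes, against -0.41 to 0.02 between numbers). The 3 deviations of a gene in a condition sum to 0, so the low values between numbers are partly fixed by those within numbers. The numbers were taken to pair the libraries from the data, since the labels do not say that they do.

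The members and gene lists were chosen with earlier results of these data known, and no p-value was adjusted over a list alone. Named with full values were every called member, the 4 most positive and 4 most negative log2 fold changes among members with no overlap between conditions, the 4 highest mean TPM, and Slc25a3, Slc25a4, Slc25a5 and Slc25a31. Slc25a42 and Slc25a35 were added because the block called them, Slc25a37 for its ratio to Slc25a28, and Slc25a24 because leaving out replicate 3 called it, all after their values were seen. Only Slc25a28 and Slc25a26 were among the most positive with no overlap. The testing code was checked on simulated data. Ratios were tested with scipy 1.17.1. Numbers of reads cover counting error only. Values of some genes of the lists are not reported here.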

Additional observations from a re-analysis of the deposited data

How the results depend on the processing

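Without the filter on low values 184 genes were upregulated and 1121 downregulated, with 0 carriers upregulated and 3 downregulated (Slc25a11, Slc25a12 and Slc25a40), and the median log2 fold change was -0.070 over all genes, with the carriers' median lying -0.22 from it. Median of ratios scaling gave 840 and 1052 genes, 1 downregulated carrier, and medians of 0.012 for the carriers and 0.033 for all genes. With the block added the medians were the same, 1129 genes were upregulated and 1515 downregulated, and 4 carriers were downregulated (Slc25a17, Slc25a40, Slc25a42 and Slc25a45). Voom on the recovered reads gave 767 and 1122 genes, 1 downregulated carrier, and medians of -0.00040 and 0.023. Leaving out 1 library at a time gave 59 to 459 upregulated and 345 to 2725 downregulated genes, and 0 to 1 and 0 to 8 carriers. Without both libraries of replicate 3, 653 and 3088 genes were called, and without both of replicate 2 limma called 0 and 0 genes and 0 and 0 carriers (380 and 1849 genes at an unadjusted p under 0.05).

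With the replicate block as a paired fit, 458 genes and 1 carrier were upregulated and 2679 genes and 9 carriers downregulated, and no other carrier's call changed than those of Slc25a17, Slc25a35 and Slc25a42. Signs turned for Slc25a3 (0.012), Slc25a4 (0.12) and Slc25a39 (0.35) under median of ratios scaling with and without the block, for Slc25a4 (0.11) and Slc25a39 (0.34) under voom, and when 1 library was left out for Slc25a5 (-0.12 to 0.84) and Slc25a39 (-0.12 to 0.0080). Over 15 named carriers and 14 alternatives, 132 of 210 values kept direction and side of the threshold, 57 lost the call, 10 gained it and 11 turned sign. The cause was not tested.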

Other observations

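The enzymes of the malate-aspartate shuttle, chosen after the values of its carriers were seen, were not called. Mdh1, the cytosolic malate dehydrogenase, measured 258 ± 38.3 TPM at 37°C and 200 ± 34.8 TPM at 26°C (log2 fold change -0.37, adjusted p = 0.30), and Mdh2, its mitochondrial counterpart, 997 ± 253 and 938 ± 144 TPM (-0.07, adjusted p = 0.89). Got1, the cytosolic aspartate aminotransferase, measured 44.7 ± 7.50 and 43.8 ± 3.99 TPM (-0.02, adjusted p = 0.97). Got2, the mitochondrial aspartate aminotransferase, was higher in each cold-acclimated library than in any non-acclimated one, at 260, 363 and 362 TPM against 434, 434 and 507 TPM (0.49, adjusted p = 0.16). The difference between these enzymes and the carriers Slc25a11 and Slc25a12 was not tested.

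Il2ra, a chain of the receptor for interleukin-2 among the T cell markers, was downregulated from 1360, 1674 and 2026 TPM to 327, 217 and 313 TPM in replicates 1, 2 and 3 (log2 fold change -2.56, adjusted p = 0.0067).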
